A study of Vitis vinifera with 24 samples.

Results

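Grapevine leaves held at 4℃ for 48 h expressed a set of genes that were almost silent in untreated leaves. The genes described here were chosen by measured values: below 1 FPKM in each of the 3 control libraries, at 10 FPKM or more in each of the 3 libraries kept at 4℃, a higher mean at 4℃ than under PEG6000, and a mean log2(FPKM + 1) in leaves given trehalose at 4℃ that differed from that at 4℃ alone by less than 1 in either direction. FPKM is a fragment count scaled by transcript length and by the mapped total of the library. Of 35840 genes in the table, 119 met the first pair of conditions and 93 met all 4. Of the 26 others, 15 were at least as high under PEG6000, 9 were lower with trehalose at 4℃ past the limit, and 2 were higher past it. The control, 4℃, PEG6000 and trehalose with 4℃ libraries thus chose the members, and their differences are given as a description with no test.

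RNA was sequenced from leaves of self-rooted greenhouse cuttings of Vitis vinifera 'Thompson Seedless'. The 8 groups, spelled as the labels do, were Tre+4℃, 4℃, Tre+PEG6000, PEG6000, Tre+NaCl, NaCl, Tre and control, with 3 biological replicates each. Tre stands for trehalose, a non-reducing disaccharide of glucose; PEG6000 is a polyethylene glycol that withdraws water osmotically, and NaCl imposes salt stress. The labels give 48 h for every group except control, and neither the doses nor the order of trehalose and stress is stated in the labels. Whether each replicate was another plant is not stated; p-values below reflect the scatter among these libraries, which may be technical. Over all genes, replicates of a group correlated at 0.997 to 0.998 (Pearson's r of log2(FPKM + 1)) and libraries of different groups at 0.918 to 0.994. The FPKM of a library summed to between 597567 and 637648, no 2 libraries were identical, and the sequencing depth is unknown.

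Plants from temperate climates answer non-freezing cold by cold acclimation, in which C-repeat binding factors, transcription factors known in Arabidopsis as CBF or DREB1, switch on genes for dehydrins, other late embryogenesis abundant proteins and enzymes of raffinose synthesis. Freezing draws water out of cells, and part of the cold response overlaps with that to drought, which runs partly through abscisic acid. The files do not pair their identifiers with names, and 0 of the 35840 identifiers matched the reference table, so no name or role is given to any member below. For the same reason the gene lists and cell type markers planned for these leaves could not be matched, and the leaf label was not checked against markers. In RNA from whole leaves, a change in the number of cells of a type and a change in RNA per cell cannot be told apart.

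The 93 genes together made up little of the transcriptome. Their share of the summed FPKM was 0.490 ± 0.0027% in Tre+4℃ leaves and 0.550 ± 0.0031% in 4℃ leaves (SD, n = 3 each). It was 0.0253 ± 0.00047% in Tre+PEG6000 leaves and 0.0974 ± 0.0019% in PEG6000 leaves. The corresponding shares were 0.0121 ± 0.00025% in Tre+NaCl, 0.0217 ± 0.00028% in NaCl, 0.00622 ± 0.00030% in Tre and 0.00519 ± 0.00022% in control leaves. The groups thus ordered, from high to low, as 4℃, Tre+4℃, PEG6000, Tre+PEG6000, NaCl, Tre+NaCl, Tre and control. The members' summed FPKM per library did not overlap between neighbouring groups in this order. The 5 most abundant members held 20.02% of the summed level at 4℃, so the sum at 4℃ was not carried by a few genes. The 5 most abundant within a group held more in PEG6000 (39.2%), Tre+PEG6000 (33.7%), Tre+NaCl (30.0%) and NaCl leaves (22.2%). They held 20.7% in Tre+4℃, 15.4% in Tre and 13.4% in control leaves.

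Per gene, the members covered a wide range at 4℃. Group means at 4℃ ran from 10.3 to 187 FPKM with a median of 21.2. They had a median of 20.2 FPKM in Tre+4℃ leaves, 0.967 in Tre+PEG6000, 1.83 in PEG6000, 0.442 in Tre+NaCl, 0.881 in NaCl, 0.352 in Tre and 0.312 in control leaves. At 4℃, 20 genes averaged 50 FPKM or more and 46 averaged under 20 FPKM. Replicates lay close together where the genes were high and scattered where they were low: the median coefficient of variation over members was 3.28% at 4℃ and 26.9% in control. Each of the 93 genes was highest in 1 of the 2 cold groups, 65 of them at 4℃ and 28 in Tre+4℃ leaves. The rule set this in part, since it placed 4℃ above control and PEG6000 and held Tre+4℃ near 4℃. Outside the cold groups, the highest mean fell in PEG6000 leaves for 59 genes, in Tre+PEG6000 for 18, in NaCl for 9, in Tre+NaCl for 6 and in Tre for 1. Of the groups outside the cold, the rule limited control and PEG6000.

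**Figure D1:**
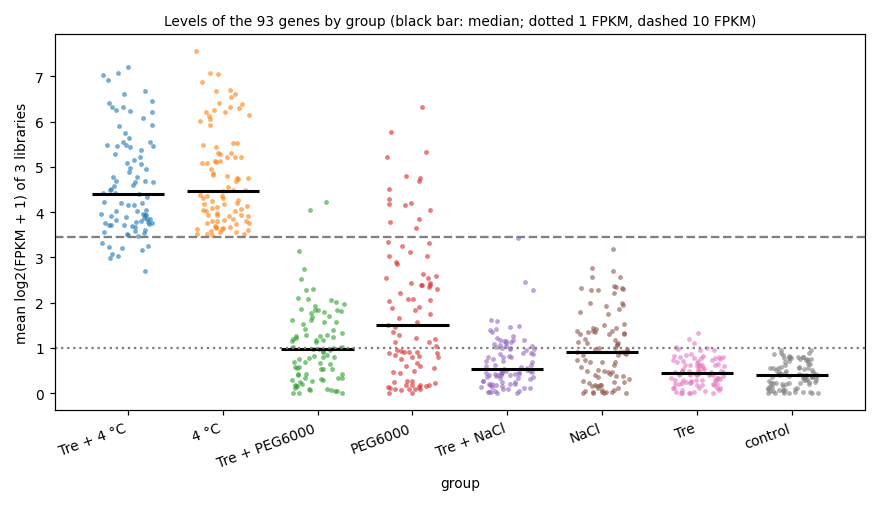
Mean log2(FPKM + 1) of 3 libraries (y axis) for each of the 93 genes (points) in the 8 groups (x axis), with the median over genes as a black bar and lines at 1 and 10 FPKM. The points of both cold groups lie far above those of Tre and control. The choice of genes fixes this for 4℃ over control and, by its limit on the trehalose difference, for Tre+4℃ over control. The PEG6000 points spread from 0 to 79.4 FPKM.

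Vitvi16g04107 reached the highest level of the set. It stood at 155, 135 and 152 FPKM in the Tre+4℃ libraries and at 190, 189 and 184 FPKM in the 4℃ libraries. Under PEG6000 it was at 3.27, 2.88 and 2.57 FPKM with trehalose and at 2.52, 2.53 and 3.00 FPKM without. Both cold groups were far above the other libraries, the 2 cold groups did not overlap, and the 2 PEG6000 groups did. Under NaCl it was at 1.49, 1.25 and 1.97 FPKM with trehalose and at 3.10, 4.11 and 3.80 FPKM without. Its levels were 0.670, 1.06 and 0.512 FPKM in Tre and 0.539, 0.552 and 0.551 FPKM in control leaves. Its mean log2 difference was 6.93 for 4℃ over control and 5.68 for 4℃ over PEG6000, the largest of the set for PEG6000.

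Vitvi18g01617 had the largest mean log2 difference of the set between 4℃ and control, at 7.0002. Its values were 87.2, 88.0 and 87.0 FPKM in Tre+4℃ leaves and 135, 134 and 132 FPKM in 4℃ leaves. They were 0.592, 0.470 and 0.782 FPKM in Tre+PEG6000 leaves and 17.2, 17.3 and 18.1 FPKM in PEG6000 leaves. This gene therefore had a second, lower level under PEG6000, which the leaves given trehalose with PEG6000 lacked. In control it was at 0.131 and 0.0301 FPKM and listed at 0 in the third library.

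The other 3 of the 5 most abundant members shared this second level under PEG6000. Vitvi07g00598 was at 87.7, 82.1 and 81.2 FPKM in Tre+4℃ and 130, 132 and 133 FPKM in 4℃ leaves. It was at 2.75, 3.19 and 3.15 FPKM in Tre+PEG6000 and 53.6, 55.4 and 52.4 FPKM in PEG6000 leaves. In each pair the trehalose libraries were the lower ones, with a mean log2 difference of -0.65 at 4℃ and -3.77 under PEG6000. Vitvi02g04372 averaged 73.1 ± 3.6 FPKM in Tre+4℃ and 116 ± 3.8 FPKM in 4℃ leaves, against 1.26 ± 0.23 in Tre+PEG6000 and 13.3 ± 0.46 in PEG6000 leaves (SD, n = 3 each). Vitvi04g02210 went the other way in the cold, with 134 ± 3.8 FPKM in Tre+4℃ and 103 ± 5.2 FPKM in 4℃ leaves, yet it too was lower with trehalose under PEG6000, at 0.724 ± 0.0083 against 24.9 ± 0.77 FPKM.

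**Figure D2:**
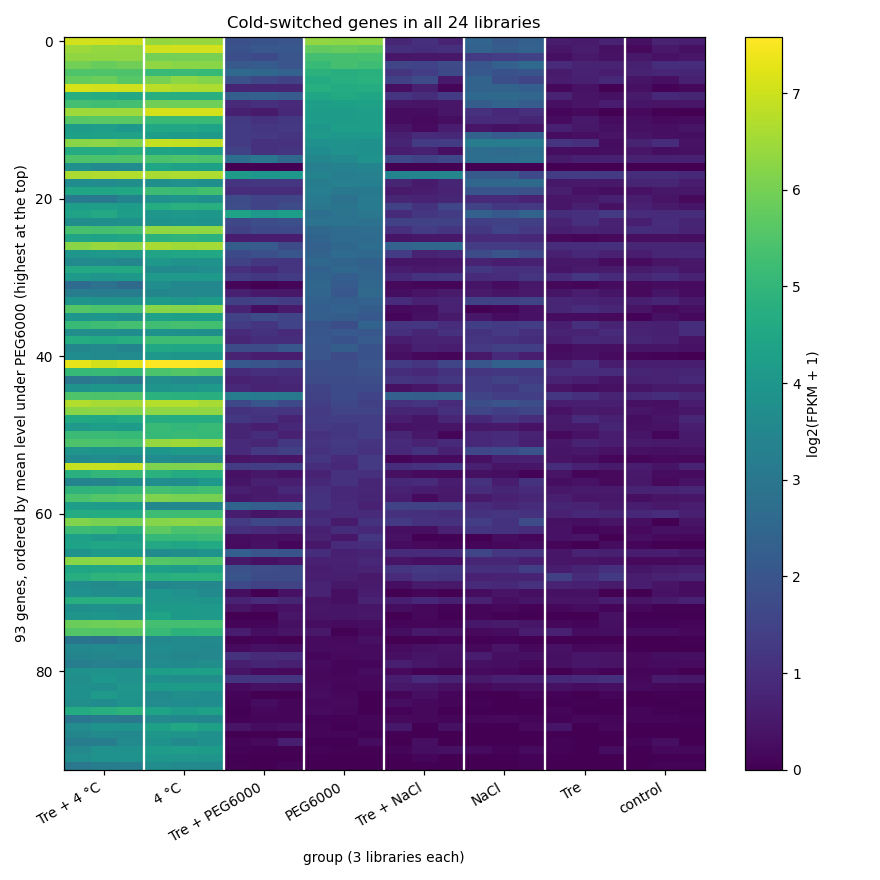
Level of each of the 93 genes (rows, ordered by their mean under PEG6000) in each of the 24 libraries (columns, 3 for each of the 8 groups), as log2(FPKM + 1) by colour. Both cold groups are bright over the whole height, PEG6000 is bright only in the upper part, where 16 genes reach 10 FPKM in every library, and the upper part is dark in Tre+PEG6000.

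The rule asked only that PEG6000 be lower than 4℃, and the members differed widely in how much lower. Under PEG6000, 16 of the 93 genes reached 10 FPKM in each of the 3 libraries, 31 were below 1 FPKM in every library and 46 lay between. At 4℃ the medians of these classes were 61.5, 14.4 and 25.3 FPKM, an order to which the rule itself contributes, since it required more at 4℃ than under PEG6000. Vitvi04g02205 had the smallest mean log2 difference of 4℃ over PEG6000, 0.07, with 82.4, 83.4 and 84.5 FPKM at 4℃ and 80.2, 77.5 and 80.6 FPKM under PEG6000. The next were Vitvi18g02139, with a mean of 17.1 ± 0.74 FPKM at 4℃ and 15.6 ± 0.23 FPKM under PEG6000, and Vitvi17g00102, with 26.0 ± 0.58 and 21.8 ± 1.5 FPKM (SD, n = 3 each). In these genes, as in all 93, every 4℃ library was above every PEG6000 library. The rule set this direction by requiring the higher mean at 4℃. At the other end, after Vitvi16g04107, Vitvi04g01685 was at 72.5, 75.9 and 72.5 FPKM at 4℃ and at 0.985, 0.451 and 1.14 FPKM under PEG6000. Vitvi07g04702 was at 82.2, 89.5 and 81.9 FPKM at 4℃ and at 1.23, 1.43 and 1.19 FPKM under PEG6000.

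A group of 23 members was seen only in the cold at the level of 1 FPKM, that is, below 1 FPKM in all 18 libraries outside the 2 cold groups. The 3 most abundant of them were Vitvi18g00430, Vitvi18g00427 and Vitvi13g02315. Vitvi18g00430 was at 73.9, 76.4 and 77.4 FPKM in Tre+4℃ leaves and at 46.6, 45.3 and 43.4 FPKM in 4℃ leaves, and its highest value in any other library was 0.808 FPKM. Vitvi18g00427 was at 57.6, 59.0 and 61.5 FPKM in Tre+4℃ and at 39.1, 38.7 and 37.7 FPKM in 4℃ leaves, with at most 0.460 FPKM elsewhere. Vitvi13g02315 was at 45.5, 45.2 and 46.4 FPKM in Tre+4℃ and at 33.4, 28.2 and 29.2 FPKM in 4℃ leaves, with at most 0.617 FPKM elsewhere. In all 3 genes the Tre+4℃ libraries lay above the 4℃ libraries without overlap. The other 70 members reached 1 FPKM in at least 1 library outside the cold.

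The members were also switched on in leaves given trehalose at 4℃, within the limit that the rule set. In Tre+4℃ leaves 81 of the 93 genes reached 10 FPKM in each of the 3 libraries, and the lowest single value was 5.13 FPKM. The mean log2 difference of Tre+4℃ over 4℃ was below 0 for 65 genes and above 0 for 28, with a median of -0.20, where all 20053 genes that passed a low-value filter (at least 1 FPKM in at least 3 libraries, which the 93 all met through the cold groups) had a median of 0.04. It lay within 0.5 of 0 for 62 genes, at 0.5 or more for 10 and at -0.5 or less for 21. The largest was that of Vitvi19g00530, at 22.7, 23.0 and 23.4 FPKM in Tre+4℃ and 11.3, 11.3 and 12.2 FPKM in 4℃ leaves (0.93). Vitvi14g02458 followed with 26.3 ± 0.40 FPKM in Tre+4℃ and 14.3 ± 0.16 FPKM in 4℃ leaves, and Vitvi14g00063 with 119.6 ± 2.4 and 68.8 ± 0.77 FPKM (SD, n = 3 each). The smallest were those of Vitvi07g04702 (-0.98; 43.2, 42.5 and 40.9 FPKM in Tre+4℃ leaves), Vitvi08g00658 (-0.97) and Vitvi02g00273 (-0.94). Vitvi08g00658 was at 10.1, 10.9 and 9.81 FPKM in Tre+4℃ and 21.7, 21.0 and 20.8 FPKM in 4℃ leaves, and Vitvi02g00273 at 40.5, 39.9 and 40.6 FPKM in Tre+4℃ and 78.9, 77.9 and 78.6 FPKM in 4℃ leaves. Relative to trehalose alone, the log2 difference of Tre+4℃ over Tre ran from 2.48 to 6.88 over the 93 genes, with a median of 3.87.

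Under PEG6000 the same genes stood very differently with trehalose. All 16 members at 10 FPKM or more under PEG6000 were lower in every Tre+PEG6000 library than in any PEG6000 library, which held for 33.0% of all 20053 genes. The 16 were picked by their high PEG6000 values, which favours a fall from them. The 20053 genes were not, so that share is no like comparison. Their medians were 1.79 FPKM in Tre+PEG6000 and 20.2 FPKM in PEG6000 leaves. In the cold the same 16 genes had medians of 50.8 FPKM in Tre+4℃ and 61.5 FPKM in 4℃ leaves. Their median log2 difference between leaves with and without trehalose was -3.03 under PEG6000 and -0.03 at 4℃, where the rule itself held it between -1 and 1. Vitvi04g02205 showed the widest gap, with 2.58, 2.76 and 3.03 FPKM in Tre+PEG6000 and 80.2, 77.5 and 80.6 FPKM in PEG6000 leaves, while in Tre+4℃ leaves it was at 132, 132 and 127 FPKM. Vitvi06g01682 showed the smallest gap of the 16, with 5.75 FPKM in Tre+PEG6000 and 11.6 FPKM in PEG6000 leaves. Whether the effect of trehalose differed between 4℃ and PEG6000 was not tested, since both stress groups chose the members.

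Not every member was lower with trehalose under PEG6000. Over the 93 genes, every Tre+PEG6000 library was below every PEG6000 library for 56 and above for 16, where all genes showed the same for 33.0% and 42.7%. The median log2 difference was -0.40 over the members and 0.08 over all genes. The only members at 10 FPKM or more in every Tre+PEG6000 library were Vitvi05g00605 and Vitvi11g00140. Vitvi05g00605 was at 19.6, 15.6 and 18.1 FPKM in Tre+PEG6000 and 5.80, 6.41 and 7.10 FPKM in PEG6000 leaves, and so lay within its range in the cold, where it was at 19.6, 23.0 and 18.1 FPKM with trehalose and 14.9, 15.6 and 15.1 FPKM without. Vitvi11g00140 was at 16.4, 14.8 and 15.5 FPKM in Tre+PEG6000 and 9.44, 8.42 and 8.87 FPKM in PEG6000 leaves, but at 97.4, 102 and 103 FPKM in Tre+4℃ leaves.

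**Figure D3:**
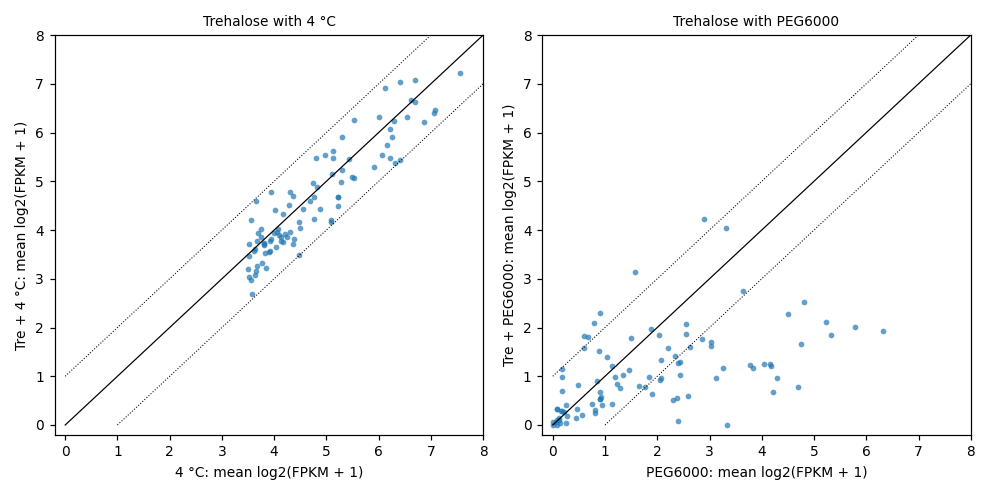
Mean log2(FPKM + 1) of 3 libraries for each of the 93 genes with trehalose (y axis) against without (x axis), at 4℃ on the left and under PEG6000 on the right, with equality as a solid line and differences of 1 as dotted lines. At 4℃ all points lie between the dotted lines because the rule required it, and under PEG6000 the genes on the right of the panel lie far below.

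The NaCl, Tre, Tre+NaCl and Tre+PEG6000 libraries took no part in the choice of the genes, so comparisons among these 4 groups could be tested. Tests used limma across 20053 genes on log2(FPKM + 1), two-sided, and a gene was called at a Benjamini-Hochberg adjusted p below 0.05. In place of control, which chose the members, leaves given trehalose alone served as the low point. The members were also low in Tre leaves: 81 of 93 were below 1 FPKM in every Tre library, and the median log2 difference of Tre over control was 0.04. The highest mean in Tre leaves was 1.498 FPKM, that of Vitvi11g00140. At such levels little room was left for a lower value, so few lower calls against Tre could be made. The members passed the low-value filter through the cold groups, whereas the 20053 genes were not chosen as low outside the cold. The shares of all genes given below are therefore no like comparison.

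Part of the set stood at low but measurable levels under salt. In NaCl leaves 47 members were below 1 FPKM in every library and 0 reached 10 FPKM in every library. Against Tre leaves, 57 of the 93 were called higher in NaCl leaves and 3 lower, where 46.2% of all genes were called higher and 21.3% lower. The median log2 difference was 0.32 over the members and 0.13 over all genes tested. This comparison differs in both agents, salt and trehalose, and is a difference between these 2 groups only. Quantile normalization gave 40 members higher and 10 lower and moved the median of all genes to -0.02, with 0.15 over the members.

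Vitvi08g01412 rose most, with 5.59, 5.30 and 5.61 FPKM in NaCl leaves and 0.226, 0.203 and 0.213 FPKM in Tre leaves (log2 difference 2.42, SE 0.09, adjusted p = 1.34e-16). Vitvi02g04372, already named for its level at 4℃, had the highest mean of any member under NaCl, with 8.33, 8.26 and 7.58 FPKM in NaCl and 1.23, 1.06 and 0.201 FPKM in Tre leaves (2.36, SE 0.17, adjusted p = 1.50e-11). Neither gene's groups overlapped, and both stayed below their levels at 4℃. Of the 3 genes called lower, Vitvi07g02207 was at 0.622, 0.651 and 0.685 FPKM in NaCl and 1.69, 0.873 and 1.42 FPKM in Tre leaves (-0.48, SE 0.10, adjusted p = 0.00032). The other two, Vitvi16g00735 and Vitvi07g04558, were named after their values were seen and were below 1 FPKM on average in both groups.

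Trehalose given with salt was accompanied by lower levels of part of the members. Between Tre+NaCl and NaCl leaves, 42 of the 93 genes were called lower with trehalose and 8 higher, against 32.0% and 19.9% of all genes. The median log2 difference was -0.20 over the members and -0.04 over all genes tested. Vitvi08g01412 fell most, with 0.498, 0.580 and 0.250 FPKM in Tre+NaCl and 5.59, 5.30 and 5.61 FPKM in NaCl leaves (-2.18, SE 0.09, adjusted p = 2.32e-15). Vitvi02g04372 was next, with 0.732, 1.496 and 1.51 FPKM in Tre+NaCl and 8.33, 8.26 and 7.58 FPKM in NaCl leaves (-2.03, SE 0.17, adjusted p = 4.22e-10).

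Some members rose with trehalose under salt. Vitvi11g00140 was at 9.80, 9.80 and 9.86 FPKM in Tre+NaCl and 3.42, 3.32 and 2.21 FPKM in NaCl leaves (1.46, SE 0.08, adjusted p = 1.58e-13). Vitvi18g02468 was at 4.21, 4.66 and 4.62 FPKM in Tre+NaCl and 1.48, 1.51 and 1.42 FPKM in NaCl leaves (1.15, SE 0.10, adjusted p = 8.35e-10). In both genes all Tre+NaCl libraries were above all NaCl libraries. At 4℃ the first was at 95.2, 98.4 and 98.6 FPKM and the second at 94.4, 89.2 and 92.1 FPKM, so their levels under salt with trehalose were still far lower.

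Relative to trehalose alone, salt with trehalose changed fewer members. Against Tre leaves, 34 of the 93 were called higher in Tre+NaCl leaves and 2 lower, against 33.4% and 16.1% of all genes, so the share called higher was near that of all genes. The median log2 difference was 0.10 over the members and 0.07 over all genes. The largest rises were those of Vitvi11g00140, with 9.80, 9.80 and 9.86 FPKM in Tre+NaCl and 1.52, 1.52 and 1.46 FPKM in Tre leaves (2.11, SE 0.08, adjusted p = 5.61e-16), and Vitvi18g02468, with 4.21, 4.66 and 4.62 FPKM in Tre+NaCl and 0.933, 0.936 and 1.06 FPKM in Tre leaves (1.47, SE 0.10, adjusted p = 2.77e-11). The same 2 genes had the largest rises between Tre+NaCl and NaCl leaves. The 2 genes called lower, Vitvi16g00735 and Vitvi06g00555, were named after their values were seen and were below 1 FPKM on average in both groups. The count of lower calls was 1 without replicate 1 or 3 of Tre+NaCl or replicate 3 of Tre, and quantile normalization gave 23 higher and 5 lower.

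Many members were higher under PEG6000 with trehalose than under trehalose alone. Against Tre leaves, 56 of the 93 were called higher in Tre+PEG6000 leaves and 2 lower, against 48.0% and 15.5% of all genes. The median log2 difference was 0.45 over the members and 0.15 over all genes tested. Vitvi05g00605 rose most, with 19.6, 15.6 and 18.1 FPKM in Tre+PEG6000 and 0.970, 1.04 and 1.46 FPKM in Tre leaves (3.12, SE 0.11, adjusted p = 2.90e-17). Vitvi11g00140 followed, with 16.4, 14.8 and 15.5 FPKM in Tre+PEG6000 and 1.52, 1.52 and 1.46 FPKM in Tre leaves (2.73, SE 0.08, adjusted p = 6.62e-19). Neither gene's groups overlapped. The genes called lower were Vitvi16g00735 and Vitvi06g00505, both below 1 FPKM on average in both groups and named after their values were seen. That count was 1 without replicate 2 of Tre+PEG6000 or replicate 2 of Tre. With quantile normalization 43 were higher and 9 lower, and the median was 0.13 over the members and -0.05 over all genes.

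With trehalose present, many members were higher under PEG6000 than under salt. Between Tre+PEG6000 and Tre+NaCl leaves, 53 of the 93 were called higher under PEG6000 and 4 lower, against 39.2% and 22.1% of all genes. The median log2 difference was 0.29 over the members and 0.07 over all genes tested. Quantile normalization reduced these counts to 32 higher and 8 lower, with medians of 0.09 over the members and -0.06 over all genes. Vitvi05g00605 had the largest difference, with 19.6, 15.6 and 18.1 FPKM in Tre+PEG6000 and 0.869, 1.28 and 1.47 FPKM in Tre+NaCl leaves (3.09, SE 0.11, adjusted p = 4.92e-17). Vitvi05g04355 was at 2.52, 2.23 and 3.01 FPKM in Tre+PEG6000 and 0.382, 0.405 and 0.401 FPKM in Tre+NaCl leaves (1.36, SE 0.07, adjusted p = 5.48e-14). Of the 4 lower genes Vitvi06g00505 fell most, with 0.534, 0.338 and 0.466 FPKM in Tre+PEG6000 and 1.11, 1.05 and 0.947 FPKM in Tre+NaCl leaves (-0.50, SE 0.07, adjusted p = 1.74e-06). The others, named after their values were seen, were Vitvi18g02468, PT_newGene_881 and Vitvi12g02064.

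**Figure D4:**
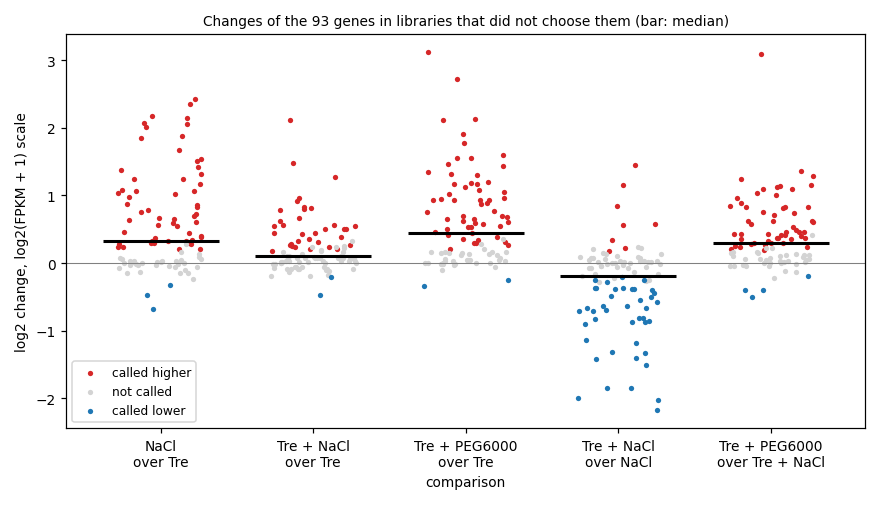
Log2 difference on the log2(FPKM + 1) scale (y axis) of each of the 93 genes (points) in the 5 tested comparisons (x axis), coloured by the call and with the median as a black bar. Higher calls outnumber lower ones in all comparisons except Tre+NaCl over NaCl, where 42 genes are lower and 8 higher. Over all 20053 genes, which were not chosen as low outside the cold, the balance ran the same way. The shares higher and lower were 46.2% and 21.3% for NaCl over Tre and 33.4% and 16.1% for Tre+NaCl over Tre. They were 48.0% and 15.5% for Tre+PEG6000 over Tre and 39.2% and 22.1% for Tre+PEG6000 over Tre+NaCl. For Tre+NaCl over NaCl they were 19.9% and 32.0%.

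The 16 genes that were high under PEG6000 accounted for 15 of the 57 genes higher in NaCl than in Tre leaves and 15 of the 42 lower in Tre+NaCl than in NaCl leaves. Of the 31 genes below 1 FPKM in every PEG6000 library, 7 were called higher in NaCl than in Tre leaves and 10 higher in Tre+PEG6000 than in Tre leaves. Of all genes tested, 46.2% were called higher in NaCl and 48.0% higher in Tre+PEG6000 than in Tre leaves, larger shares than among these 31. The 31 were picked for low PEG6000 values, so the shares of all genes are no like comparison. Their medians were 0.179 FPKM in NaCl, 0.222 in Tre+PEG6000 and 0.160 in Tre leaves, where few calls can be made. Lower calls in Tre+NaCl than in NaCl leaves came to 32.0% of all genes. Over the 93 genes the group means under PEG6000 and NaCl, which share no library although the rule capped those under PEG6000 at 4℃ levels, correlated with a Spearman's rho of 0.74 and, on the log2(FPKM + 1) scale, a Pearson's r of 0.72. Those in Tre+PEG6000 and Tre+NaCl leaves correlated with 0.86 and 0.82. The other pairs for which it was computed had a lower rho: 0.45 for 4℃ and NaCl, 0.44 for Tre+4℃ and Tre+PEG6000, and 0.62 for PEG6000 and Tre+PEG6000. Correlations over members were not computed for any further pair of groups, so these values do not rank the pairs. Over all genes, single libraries of different groups correlated at a Pearson's r of 0.918 to 0.994. These values are across genes, which are not independent replicates.

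**Figure D5:**
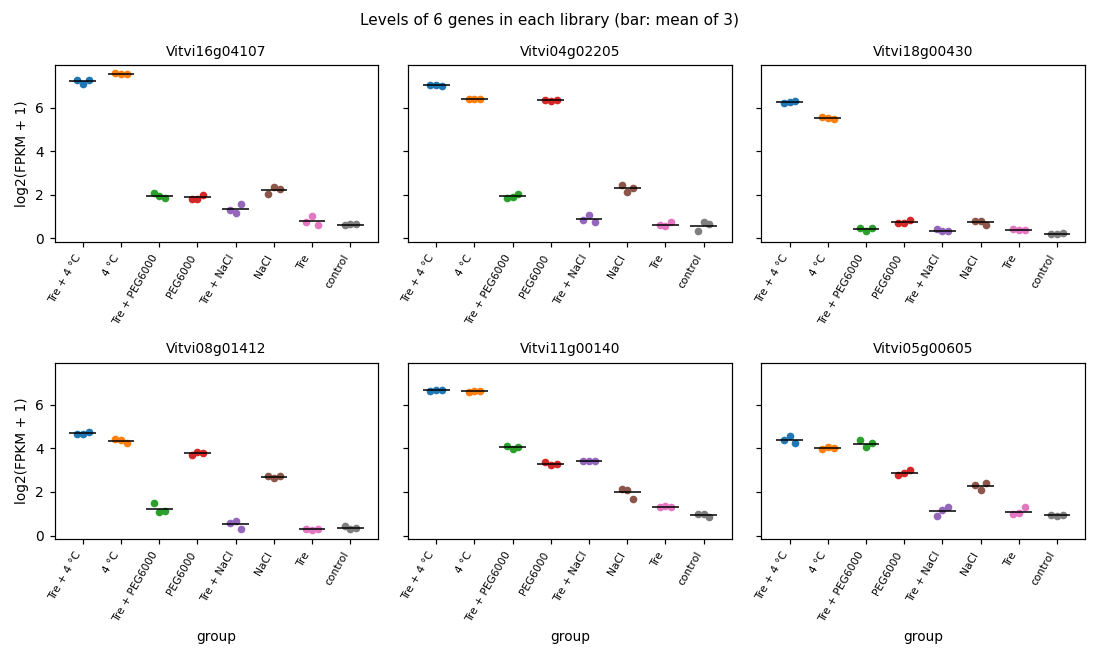
Log2(FPKM + 1) in each library (points) and mean of 3 libraries (bars) of 6 members in the 8 groups (x axis). Vitvi04g02205 is 0.07 higher at 4℃ than under PEG6000, Vitvi18g00430 is high in the cold groups only, and Vitvi05g00605 reaches its cold level in Tre+PEG6000 leaves.

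Several members carry identifiers numbered close together. Within a prefix, 11 members formed 5 runs in which the next member's number was at most 5 higher. Vitvi05g04355 averaged 79.3 ± 0.33 FPKM in Tre+4℃, 63.6 ± 0.71 in 4℃, 2.59 ± 0.39 in Tre+PEG6000 and 39.3 ± 0.71 in PEG6000 leaves (SD, n = 3 each). Vitvi05g04356 averaged 48.5 ± 0.67 FPKM, 33.9 ± 0.60 FPKM, 1.31 ± 0.17 FPKM and 17.2 ± 0.38 FPKM in the same groups, and so was lower in each of them. Vitvi11g01675 and Vitvi11g01676 shared a different pattern, being below 1 FPKM in every PEG6000 library and higher with trehalose: they averaged 1.99 ± 0.18 and 3.25 ± 0.51 FPKM in Tre+PEG6000 leaves, against 0.509 ± 0.12 and 0.746 ± 0.20 FPKM in PEG6000 leaves. The remaining runs, picked out after their values were seen, were Vitvi04g02205 with Vitvi04g02210, Vitvi16g04105 with Vitvi16g04107, and Vitvi18g00424 with Vitvi18g00427 and Vitvi18g00430. Vitvi16g04105 averaged 97.5 ± 4.3 FPKM in Tre+4℃ and 102 ± 6.2 FPKM in 4℃ leaves and, like its neighbour, was low under PEG6000, at 2.47 ± 0.54 with trehalose and 1.83 ± 0.26 without. Vitvi18g00424 differed from the other two of its run, with 3.90 ± 0.46 FPKM in Tre+PEG6000 and 0.876 ± 0.26 FPKM in PEG6000 leaves. If such genes are near-identical copies, the authors' estimation may have divided reads between them, and the files do not show this. By prefix, Vitvi18g held the largest number of members, 14 of the 90 with a Vitvi identifier. It also held the largest number of genes of the prefixes with members, 2601 of the 35134 Vitvi genes, a smaller share than that of the members. Whether members gather in this prefix was not tested. The remaining 3 members were PT_newGene identifiers, of which the table has 706.

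The limits of the rule fell among genes with similar values. Vitvi02g00273 was just inside the control limit, with a highest control value of 0.994 FPKM, and Vitvi07g00395 just outside, with 1.02 FPKM. At the limit for the cold, Vitvi01g01509 was inside with a lowest 4℃ value of 10.1 FPKM and Vitvi05g04399 outside with 9.85 FPKM. At the limit against PEG6000, Vitvi04g02205 was inside and Vitvi01g01801 outside, with means of 62.8 FPKM at 4℃ and 82.0 FPKM under PEG6000. At the limits on the log2 difference of Tre+4℃ over 4℃, Vitvi07g04702 was inside at -0.98 and Vitvi14g02049 outside at -1.04. Vitvi19g00530 was inside at 0.93 and Vitvi11g00046 outside at 1.06.

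The genes whose profile over the 8 group means was most like the mean profile of the members, among genes that are not members and average at least 10 FPKM at 4℃, were Vitvi18g02814, Vitvi05g00883 and Vitvi08g01880, each with a Pearson's r of 0.998 or 0.999 over 8 group means of log2(FPKM + 1). All 3 started from a higher level in control than any member. Vitvi18g02814 averaged 247 ± 0.83 FPKM in Tre+4℃, 242 ± 4.9 in 4℃, 31.8 ± 1.0 in Tre+PEG6000 and 46.5 ± 0.50 in PEG6000 leaves, and 22.4 FPKM in control. Vitvi05g00883 averaged 235 ± 5.7, 247 ± 5.2, 26.9 ± 0.66 and 48.8 ± 0.85 FPKM in the same 4 groups and 18.9 FPKM in control. Vitvi08g01880 averaged 134 ± 2.8, 164 ± 0.59, 27.4 ± 2.8 and 40.3 ± 0.90 FPKM and 18.2 FPKM in control (SD, n = 3 each). Among the members, Vitvi07g02298 followed their mean profile most closely (r = 0.999) and Vitvi05g00605 least (r = 0.77), over the same 8 means, to which each member itself contributes.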

How the data were processed

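One table of FPKM values was used, with 1 column per library, computed by the authors from their reads and deposited without pooling replicates. StringTie 2.1.3b, SAMtools 1.9, HISAT2 2.1.0 and fastp 0.20.0 are listed, per the submitters' processing notes, without role or order. For the build, the annotation and the strandedness nothing is given in the sources used here, so overlapping, antisense and near-identical genes are uncertain. Columns were assigned by name (0 left unused), and genes were selected by the rule at the head of the results. FPKM tie each gene to its library's total, and fold changes on the log2(FPKM + 1) scale understate those of low genes.

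A linear model with 8 group means was fitted to all 24 libraries in limma (version 3.58.1, R 4.3.3; moderated by eBayes, trend option on) over the 20053 genes that reached 1 FPKM in 3 or more libraries, with Benjamini-Hochberg adjustment within a comparison. The fit was tested on simulated data in which only genes with a higher mean level were changed. Calls at the low levels of most members were therefore not checked by it. Tests were limited to the 5 comparisons among groups that took no part in the selection. Members, lists and comparisons were chosen with earlier results of these data known. Named members were the extremes by level at 4℃, by the differences of 4℃ over PEG6000 and Tre+4℃ over 4℃, and by each test (where the higher group averaged 1 FPKM or more), the most abundant members below 1 FPKM outside the cold, those with adjacent identifiers and those next to a limit; others are said to have been chosen later. Alternatives covered the pseudocount, filters, 3 scalings, variance models, which groups were fitted, a block for replicate number, a 2-fold limit, leaving out each library and, for the selection, its limits. Figures used Python 3.11.15 and matplotlib 3.10.9.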

Additional observations from a re-analysis of the deposited data

Results flagged for a closer look

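For 14 of the 28 named members recomputed here, every library with trehalose lay on one side of every library without it under 1 stress and on the opposite side under another. The same held for 18 of all 93 members and for 23.0% of the 20053 genes, and the named members were picked partly as extremes of such differences. The difference between the stresses was not tested, and the 4℃, Tre+4℃ and PEG6000 libraries helped to choose the genes. Each value is the log2 effect of trehalose under the first stress minus that under the second. For 4℃ minus PEG6000 it was 5.05 for Vitvi04g02205, 4.28 for Vitvi04g02210, 3.81 for Vitvi05g04355, 3.48 for Vitvi05g04356, 2.96 for Vitvi18g02139, 2.89 for Vitvi08g01412, 2.34 for Vitvi19g00530, 1.06 for Vitvi18g00430 and -0.79 for Vitvi04g01685. For 4℃ minus NaCl it was 2.52 for Vitvi08g01412, 2.37 for Vitvi04g02210, 2.06 for Vitvi04g02205, 1.67 for Vitvi18g02139, 1.53 for Vitvi05g00605, 1.48 for Vitvi19g00530 and 1.21 for Vitvi05g04355. In the same contrast it was 1.13 for both Vitvi18g00430 and Vitvi05g04356, 0.98 for Vitvi18g00427, 0.70 for Vitvi11g01675, 0.65 for Vitvi11g01676 and -1.37 for Vitvi18g02468. For PEG6000 minus NaCl it was 2.48 for Vitvi05g00605, 1.65 for Vitvi11g01676, 1.496 for Vitvi11g01675 and -1.64 for Vitvi18g02468.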

How the results depend on the processing

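The selection gave 92 genes with TPM-like scaling and 113 with median-of-ratios scaling, and between 92 and 99 when 1 library was left out. Its thresholds set its size: 23 genes remained at below 0.5 FPKM in control and 20 or more at 4℃, and 290 met below 2 and at least 5 FPKM. Asking for a 2-fold change besides the adjusted p left 23 members higher and 0 lower for NaCl over Tre, 3 and 0 for Tre+NaCl over Tre, 22 and 0 for Tre+PEG6000 over Tre, 2 and 12 for Tre+NaCl over NaCl, and 11 and 0 for Tre+PEG6000 over Tre+NaCl. Quantile normalization raised the lower calls to 10, 5, 9 and 8 in all but Tre+NaCl over NaCl, and cut the higher calls to 32 for Tre+PEG6000 over Tre+NaCl; the cause was not tested. Lower calls for NaCl over Tre were 5 with a pseudocount of 0.1 and 6 with median-of-ratios scaling, which moved the median log2 difference of all genes to 0.0030 and that of the members to 0.24. For Tre+NaCl over Tre they were 1 with no filter, with a mean of at least 5 FPKM, with TPM-like scaling, with robust variances and with only the 2 groups fitted, and 1 to 3 without single libraries. For Tre+PEG6000 over Tre they were 1 to 2 without single libraries. With genes averaging 5 FPKM or more, 57 members among them, 5 were higher for Tre+NaCl over NaCl and 2 lower for Tre+PEG6000 over Tre+NaCl. The replicate block gave 57, 33, 57, 7 and 52 higher calls in the order of the comparisons above, where the fit without it gave 57, 34, 56, 8 and 53. Same-numbered libraries of the tested comparisons deviated from their group means with correlations of -0.095 to 0.037, 0 of 15 above 0.1. The control, 4℃, Tre+4℃ and PEG6000 libraries were not included. Such correlations cannot show whether same-numbered libraries shared a plant, a day or a batch. The 14 log2 changes of members named by a test kept their direction and an adjusted p below 0.05 with a pseudocount of 0.1, the 3 scalings, the replicate block and each library left out. With the 2-fold limit, the lower calls of Vitvi07g02207 and Vitvi06g00505 were lost. Below 1 FPKM replicates scatter widely, and unknown depth limits what these levels show.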

Other observations

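Vitvi03g01561 was listed at 0 in all 15 libraries outside the 2 cold groups and PEG6000. It was at 13.0, 11.4 and 11.7 FPKM in Tre+4℃ leaves and at 20.8, 19.1 and 19.0 FPKM in 4℃ leaves. Under PEG6000 it was at 8.40, 9.06 and 9.80 FPKM, so this gene was seen in PEG6000 leaves and listed at 0 in Tre+PEG6000 leaves. It was picked out after its values were seen, and a listed 0 can be a failed estimate.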
